A study of Mus musculus with 11 samples.

Results

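The whole kidneys of 7 NZB/W mice, of 11 kidneys profiled in the series, were examined for which genes were most abundant, which differed most from animal to animal, and which of those moved together. All 7 came from F1 females of the NZB by NZW cross, which were 6 weeks old, had no serum autoantibodies, immune complex deposits or proteinuria, and received no treatment. The mice were perfused with saline through the heart before harvest, and each kidney was hybridised as biotinylated cRNA to an Affymetrix array. The other 4 kidneys, from NZW/BXSB males aged 8 weeks, served only for the spread of the same genes within that strain, and levels of the strains were not compared. F1 animals of inbred parents share their genotype, so the spread between kidneys holds differences between genetically alike animals, their dissection and their arrays together. The labels number the kidneys but give no litter, batch or date and do not state that each came from a separate mouse, so part of the spread may be technical.

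Values are RMA log2 intensities as deposited, 1 per Entrez gene, so that 1 unit is a doubling of signal. Of 16475 genes with values, the 13366 that the authors called above baseline in NZB/W were ranked. The order of genes by level is an order of hybridisation signal, which also depends on the probes. The 95th percentile of the genes not called above baseline was 5.23, and differences that reach below that level are limited by background. An SD over 7 kidneys is imprecise: its 95% interval ran from 0.644 to 2.20 times the value given, if values are normally distributed.

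A whole kidney is mostly tubule by mass, with proximal tubule the largest share, and its RNA is dominated by transport, oxidative metabolism and gluconeogenesis. Tissue that lies against the kidney, such as the adrenal gland and perirenal fat, expresses genes that the nephron does not, and a few kinds of gene respond within an hour to handling, hormones or cytokines. Markers of the proximal tubule and the thick ascending limb were high in all 7 kidneys. Slc34a1, the sodium phosphate cotransporter of the proximal tubule, averaged 13.34 ± 0.13, and Slc12a1, the cotransporter of the thick ascending limb, averaged 12.90 ± 0.20 (SD, n = 7). Other kidney markers were lower, among them Nphs1 of podocytes (6.96 ± 0.29) and Pecam1 of endothelium (8.01 ± 0.09). Acta1, skeletal muscle actin, was not above baseline and lay between 4.45 and 4.84. Some markers of other tissues were called above baseline, such as Ckm of muscle (mean 6.47) and Alb of liver (mean 7.65).

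The arrays had like distributions, with medians over the ranked genes between 7.54 and 7.58, and any 2 kidneys correlated at 0.982 to 0.997 across genes, which are not independent replicates. Kidneys 6 and 7 were the closest pair and kidneys 1 and 2 the farthest. Kidney 1 was at the end of the range on control probe sets. Its 21 poly-A spike sets averaged 5.75, against 6.64 to 7.85 in the other 6 kidneys, and the 3′ probe set of pyruvate carboxylase exceeded the 5′ set by 3.54 there, against 2.25 to 2.83 elsewhere. The Gapdh difference between 3′ and 5′ sets was also largest in kidney 1 (0.126, against -0.054 to 0.037 elsewhere). The 18S rRNA mean was lowest there (6.21, against 6.43 to 7.49). Kidneys 2 and 5 had the most genes far from the median. More than 2-fold from the median of the 7 kidneys lay 51 genes in kidney 2 and 46 in kidney 5, against 5 to 12 in each of the others. In kidney 2 more of these genes were low (32) than high (19), whereas in kidney 5 there were 39 high and 7 low. Over all ranked genes, kidney 1 was the farthest from the median for 21.2%, kidney 2 for 20.2%, kidney 4 for 19.4% and kidney 5 for 12.2%.

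**Figure D1:**
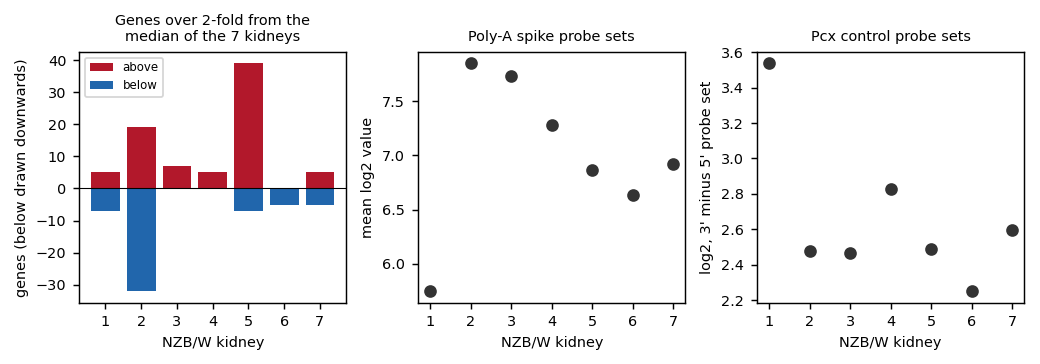
Left, number of ranked genes more than 2-fold above (upward bars) or below (downward bars) the gene's median over the 7 kidneys, for each NZB/W kidney. Kidney 2 has 32 low genes and kidney 5 has 39 high genes. Middle, mean log2 value of 21 poly-A spike probe sets on each array. Right, log2 difference between the 3′ and 5′ control probe sets of pyruvate carboxylase (Pcx). Kidney 1 has the lowest spike mean (5.75) and the largest 3′ minus 5′ difference (3.54). Points are single arrays.

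The highest signals belonged to genes of the proximal tubule and of energy metabolism, and their values hardly differed between the 7 arrays. Among all 188 ranked genes above a level of 12, the median SD was 0.117 and 0 had an SD above 0.5. The part of normalisation and of signal near the top of the scale in this steadiness was not tested. Gpx3, the glutathione peroxidase that the kidney secretes into plasma, ranked first with values of 14.53, 14.42, 14.38, 14.47, 14.37, 14.47 and 14.43 in kidneys 1 to 7. It was the higher of the pair in all 7 kidneys when set against the next gene, Kap, the androgen-regulated kidney protein of the proximal tubule, which averaged 14.19 ± 0.09. Fth1, the ferritin heavy chain that stores iron, averaged 14.04 ± 0.03.

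Others of the 20 highest fell into a few roles. Mitochondrial energy genes were Slc25a5, the ADP/ATP carrier (13.91 ± 0.11), Atp5b (13.91 ± 0.08), Atp5g3 (13.56 ± 0.11) and Cox6a1 (13.56 ± 0.14), the Atp5 and Cox genes being subunits of ATP synthase or cytochrome c oxidase. Sugar and inositol metabolism was represented by Fbp1, the fructose bisphosphatase of gluconeogenesis (13.79 ± 0.09), Miox, which opens the ring of inositol (13.75 ± 0.11), and Akr1a1, an aldehyde reductase (13.81 ± 0.03). Peroxisomal and fatty acid metabolism gave Hao2, a hydroxyacid oxidase (13.63 ± 0.13), and Slc27a2, a fatty acid transporter and acyl-CoA synthetase (13.55 ± 0.07). Gpx1, the intracellular glutathione peroxidase, averaged 13.67 ± 0.07 and Hspa8, the constitutive heat shock chaperone, 13.55 ± 0.13. Napsa, an aspartic protease (13.72 ± 0.10), and Itm2b, a membrane protein (13.54 ± 0.10), were also among them (SD, n = 7 for all).

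A pair of secreted proteins was also among the 20. Umod, uromodulin of the thick ascending limb, had values between 13.44 and 13.69. Spp1, osteopontin, was the most variable of the 20. Its values were 13.69, 13.78, 13.79, 13.67, 13.64, 13.32 and 13.28 in kidneys 1 to 7, so kidneys 6 and 7 lay together below the other 5. Most neighbours in the order did not differ beyond their spread. Of 20 neighbouring pairs, which include the gene at rank 21, only 3 kept their order in all 7 kidneys, among them Gpx3 over Kap and Atp5b over Akr1a1. The 20 means spanned 14.44 to 13.54, a 1.87-fold range of signal.

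The SD of the 20 had a median of 0.0924 log2 units, against 0.126 over all 13366 ranked genes, and 5 of the 20 exceeded that median. Among genes with a mean above 10, the steadiest were Rtn3, an endoplasmic reticulum protein (SD 0.0182), Polr2i, a subunit of RNA polymerase II (0.028), Akr1a1 (0.0284), Tax1bp1, an autophagy receptor (0.0307), and Psmc5, a subunit of the proteasome (0.0319). From the lowest to the highest kidney these genes spanned 0.0558 log2 units (Rtn3) to 0.103 (Tax1bp1).

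**Figure D2:**
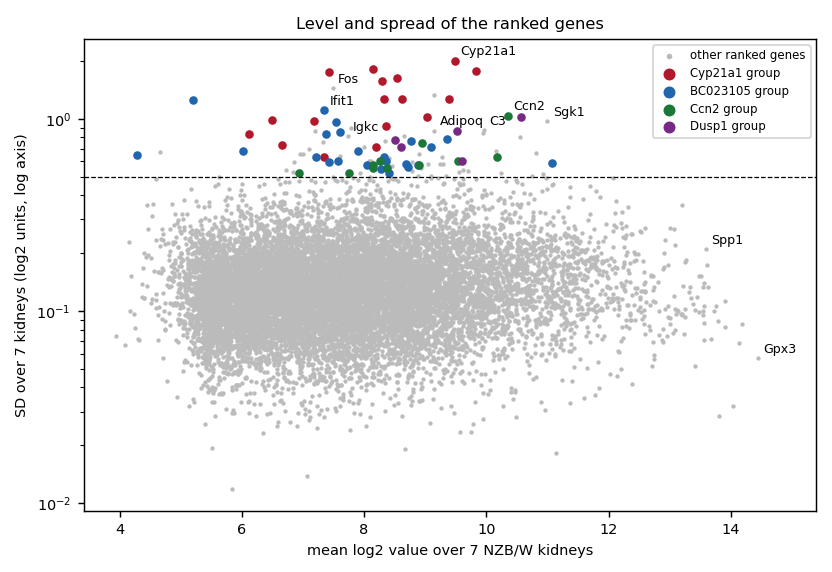
Each point is 1 of 13366 ranked genes. The horizontal axis is the mean log2 value over the 7 NZB/W kidneys and the vertical axis is the SD over the same kidneys on a log axis, with a dashed line at 0.5. Genes of the 4 groups described in the text are coloured. Gpx3, at the far right, has an SD below 0.1, and the genes above the dashed line are spread over low and high levels.

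An SD above 0.5 log2 units was found for 106 genes, which is 0.793% of those ranked. Without kidneys 2 and 5 it was found for 64. The median SD was 0.147 at levels up to 5, 0.118 at levels of 5 to 6, 0.147 at levels of 10 to 11 and 0.117 above 12, so it did not rise steadily with level. An SD above 0.5 was reached by 10 of 739 genes at levels of 10 to 11 and by 0 of 188 above 12. The 20 genes with the highest SD held 9.37% of the variance summed over all ranked genes, and the 100 highest held 18.3%. The gene at rank 100 was Cyp1b1 with an SD of 0.5204, and the gene at rank 101 was F2r, a thrombin receptor, with 0.5200.

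The 100 most variable genes were taken in order of SD, and each joined the first earlier leading gene with which its r over the 7 kidneys was at least 0.9 in size, or otherwise led a new group. This gave 27 groups, of which 4 held at least 5 genes and together took in 56 of the 100. The groups are named here by their leading gene. An r of that size was common by itself with 7 kidneys: it was reached by 1.77% of all pairs of ranked genes and by 10.9% of pairs among the 100. A further 11 groups held 2 to 4 genes, and 12 genes stood alone.

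A single kidney lay far from the other 6, by Dixon's ratio of the end gap to the range, for 5.21% of all ranked genes.

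**Figure D3:**
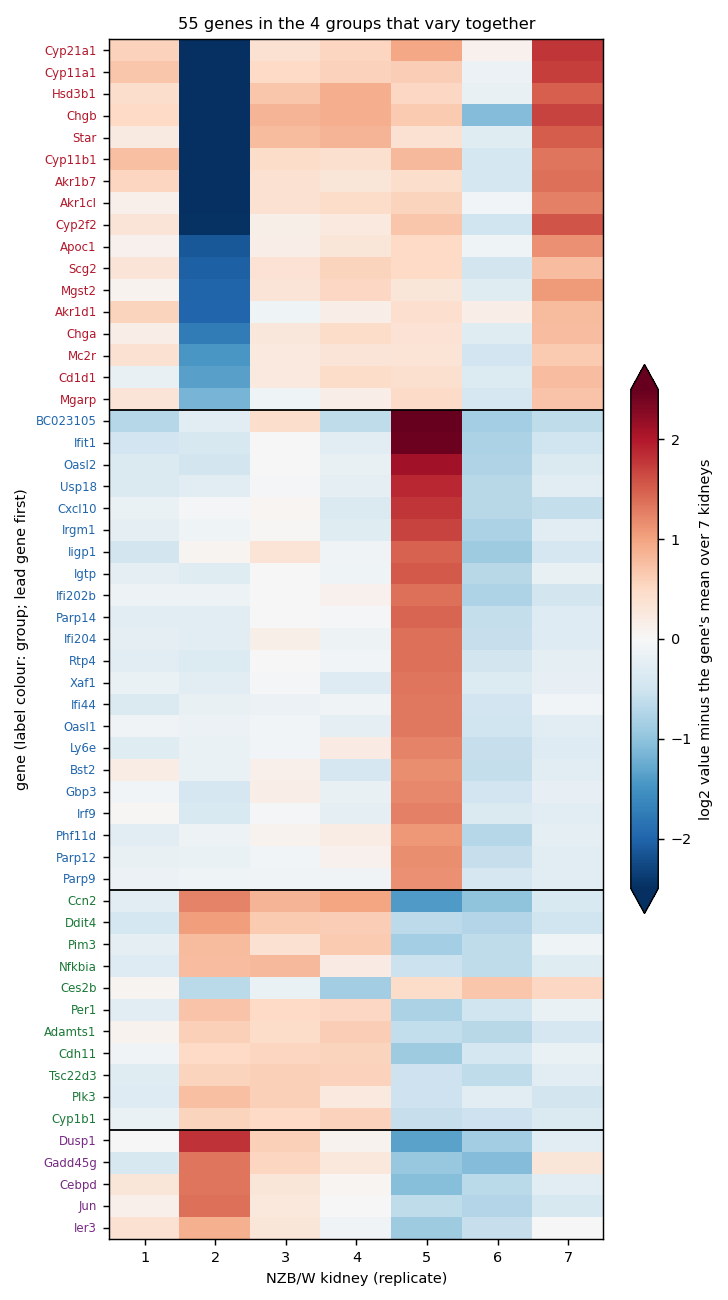
55 of the 56 genes of the 4 larger groups (rows, the leading gene of each group first) in the 7 NZB/W kidneys (columns). Colour gives the log2 value minus the gene's mean over the 7 kidneys, red above and blue below, with values beyond 2.5 drawn at the end of the scale. All 17 genes of the Cyp21a1 group are lowest in kidney 2 and highest in kidney 7, and all 22 genes drawn of the BC023105 group are highest in kidney 5. Genes were grouped by r over these same kidneys, so shared ends follow largely from the grouping.

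The most variable genes of all were those of steroid synthesis in the adrenal gland, and 1 kidney was far below the others for them. The 17 genes of the Cyp21a1 group were all lowest in kidney 2 and all highest in kidney 7. Genes joined the group by r over the same 7 kidneys, so sharing the far kidney of Cyp21a1 follows largely from that choice. Of the 100 most variable genes, this group included, kidney 2 was lowest for 29 and kidney 7 highest for 24. Cyp21a1, the steroid 21-hydroxylase, had values of 10.06, 5.11, 9.87, 10.03, 10.44, 9.60 and 11.27 in kidneys 1 to 7, with the highest SD of any ranked gene (2.001). In kidney 2, 9 of the 17 genes were below 5.23, whereas no gene of the group was below that level in any other kidney. In whole tissue, fewer cells of a type and less RNA per cell cannot be told apart.

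The group covered the path from cholesterol to corticosterone. Star, which moves cholesterol into mitochondria, had 5.09 in kidney 2 and 8.23 to 10.06 in the other 6. Cyp11a1, the side chain cleavage enzyme that makes pregnenolone, had 4.21 in kidney 2 and 7.99 to 9.87 elsewhere. Hsd3b1, the next enzyme, stayed above background throughout, with values of 10.26, 5.99, 10.52, 10.74, 10.34, 9.64 and 11.32. Kidney 2 was 21.8-fold below the median of the other 6 for Hsd3b1. Cyp11b1, the 11β-hydroxylase of the last step, had 4.96 in kidney 2 and 7.86 to 9.63 elsewhere. Mc2r, the receptor for corticotropin, had 5.19 in kidney 2 and 6.17 to 7.31 in the others. Akr1b7, an aldose reductase that is abundant in the mouse adrenal cortex, had 6.02 in kidney 2 and 8.20 to 9.998 elsewhere. Probes of Cyp21a1 and of Hsd3b1 may also bind close relatives of these genes.

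Genes of the adrenal medulla ran with those of the cortex. Chgb, the secretory granule protein chromogranin B, had values of 7.92, 3.91, 8.28, 8.33, 8.09, 6.35 and 9.11, and Scg2 and Chga, further granule proteins, were 4.44 and 4.37 in kidney 2, against 6.03 to 7.26 and 5.83 to 6.89 in the other kidneys. The remaining members were Mgst2, which was at 5.17 in kidney 2, and Akr1cl, Cyp2f2, Apoc1, Akr1d1, Cd1d1 and Mgarp, for which kidney 2 lay 2.67-fold (Mgarp) to 8.69-fold (Akr1cl) below the median of the others. Outside the group, Pnmt, the enzyme that makes adrenaline, had 5.75 in kidney 2 and 6.45 to 6.95 elsewhere, and Th, tyrosine hydroxylase, had 5.96 and 6.45 to 7.10.

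Since Cyp21a1 separates kidney 2 from the rest, correlations with it were computed in the other 6 kidneys. Members were chosen by r over all 7 kidneys, and Apoc1 and Cyp2f2 were also named for their high r in the 6. The values therefore describe the group. Apoc1, an apolipoprotein, gave r = 0.99 (exact permutation p = 0.00556) and rho = 0.83 (exact permutation p = 0.0583). Cyp2f2, a cytochrome P450, gave r = 0.98 (exact permutation p = 0.00139) and rho = 1 (exact permutation p = 0.00278), and r was 0.85 for Apoc1 and 0.99 for Cyp2f2 after leaving out the 2 kidneys farthest from the median of Cyp21a1. Cyp11a1 gave r = 0.95 (exact permutation p = 0.00972) and rho = 0.94 (exact permutation p = 0.0167), but r fell to 0.44 without those 2 kidneys. Star gave r = 0.78 (exact permutation p = 0.0736, rho = 0.54, exact permutation p = 0.297) and r = -0.53 without the 2, so the relation of Star to Cyp21a1 rests on those samples. None of the 13365 genes passed a Benjamini-Hochberg adjusted p of 0.05, and 0.95% had an unadjusted exact permutation p under 0.05. The smallest exact permutation p that 6 kidneys can give is 0.00139, so passing over this many tests would need many genes at that value. Over the 6 kidneys the median SD of the 17 genes was 0.459, against 1.26 over all 7.

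The adrenal cortex list shares 7 of its 12 ranked members with the group, so it is not separate from it. Of the 12, 10 had an SD above 0.5 (6 without kidney 2), and the mean of the members was 8.64, 6.06, 8.68, 8.72, 8.70, 8.08 and 9.30 in kidneys 1 to 7. The adrenal medulla list had 3 of 9 members above 0.5 (1 without kidney 2), and its mean was 6.68 in kidney 2 and 7.61 to 8.37 elsewhere. Cyp11b2, the aldosterone synthase of the outer cortex, did not join the group. It had values of 7.07, 5.75, 6.89, 6.22, 6.97, 6.90 and 7.28, with kidney 4 next to kidney 2 at the low end. Within the 4 NZW/BXSB kidneys, 10 of the 17 genes were also among that strain's 100 most variable of 13366 ranked genes. Chgb, for instance, had an SD of 1.76 over the 7 NZB/W kidneys and 0.90 over the 4 NZW/BXSB kidneys.

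Chgb and Scg2 share a sequence upstream of their start sites. The RefSeq promoters of assembly GRCm38.p6, from 250 bases before to 50 bases after the start, could be matched for 10481 of the ranked genes and for 11 of the 17. They are from the C57BL/6J reference, not from NZB or NZW. A cyclic AMP response element, TGACGTCA, searched on both strands, occurred in 2 of the 11, Chgb and Scg2, and in 3.34% of all 10481. Below are windows of 100 bases upstream of each start site, with the element in capitals, from chr2:132781520-132781619 on the plus strand for Chgb and from chr1:79440045-79440144 on the minus strand for Scg2.
Chgb: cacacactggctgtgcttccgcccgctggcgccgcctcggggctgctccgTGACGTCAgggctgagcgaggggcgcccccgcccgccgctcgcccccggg
Scg2: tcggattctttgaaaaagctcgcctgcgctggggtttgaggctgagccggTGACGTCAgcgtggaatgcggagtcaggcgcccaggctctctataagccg
The element began 72 bases before the start site in Chgb and 68 bases before it in Scg2. The sequence CAAGGTCA, bound by the steroidogenic factor Nr5a1, was in none of the 11 and in 1.46% of all promoters of that length.

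The largest group held genes that interferons induce, 13 of its 23 being in the interferon response list, and here 1 kidney was high. Interferons act through cell surface receptors and Janus kinases on transcription factors, Irf9 among them, which bind the interferon-stimulated response element and switch on antiviral effectors. All 23 genes of the BC023105 group were highest in kidney 5, and 22 of 23 were lowest in kidney 6. They were grouped by r over these same kidneys, so a shared highest kidney follows largely from that choice. Of the 100 most variable genes, this group included, kidney 5 was highest for 30 and kidney 6 lowest for 36. BC023105 itself, a gene of no clear function, had 7.87 in kidney 5 but 4.34 to 5.64 in the others, mostly under the background level, so Ifit1, the next gene, describes the group better. Ifit1, which binds viral RNA, had values of 6.88, 6.96, 7.35, 7.06, 9.79, 6.55 and 6.85. Kidney 5 was 7.35-fold above the median of the other 6 for this gene.

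Ordered by role, the transcription factor Irf9 was 9.30 in kidney 5, against 7.66 to 8.07 in the other kidneys. Among the effectors, Oasl2, of the oligoadenylate synthetase family, had 9.64 in kidney 5 and 6.79 to 7.55 elsewhere, and Bst2, which tethers virus particles to the membrane, had 9.86 and 8.10 to 8.87. Usp18, the protease that removes Isg15 from proteins and damps the receptor, had values of 7.26, 7.32, 7.58, 7.37, 9.49, 6.92 and 7.34. The GTPases of the Irg and Gbp families were Irgm1 (11.04 in kidney 5 and 8.56 to 9.39 elsewhere), Igtp (10.63 and 8.40 to 9.08), Iigp1 (10.25 and 7.88 to 9.12) and Gbp3 (10.09 and 8.41 to 9.04). Cxcl10, a chemokine for activated T cells, had 9.16 in kidney 5 and 6.67 to 7.43 in the others.

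The lupus susceptibility gene Ifi202b, of the Ifi200 family, had values of 5.88, 5.88, 6.03, 6.12, 7.40, 5.24 and 5.56. Its relative Ifi204 reached only 5.65 in kidney 5 and was under the background level in every other kidney, and probes may not separate the members of that family. Further members were Ly6e, Rtp4, Xaf1, Oasl1, Parp9, Parp12, Parp14, Ifi44 and Phf11d, with kidney 5 higher than the median of the other 6 by 2.41-fold to 3.33-fold. A further gene of the pathway, Irf7, which amplifies the type I response, was not in the group. Its values of 8.67, 8.17, 8.38, 7.58, 9.81, 7.54 and 8.28 were highest in kidney 5 as well, but kidney 1 came second and kidneys 4 and 6 were low.

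The interferons and their receptors were looked up after the values of the group had been seen. Of the 3 ligands measured, Ifng and Ifna4 were not above baseline, and Ifnb1 lay between 5.54 and 5.75 in all 7 kidneys with 5.54 in kidney 5, close to the background level of 5.23, so that little can be read from the ligands. Ifnar1, a chain of the type I receptor, had 8.43 in kidney 5 and 8.11 to 8.55 in the others. The 8 receptor and kinase genes had SDs between 0.0538 and 0.209. Of 9 genes that sense nucleic acid or relay that signal, Ifih1, which is itself induced by interferon, varied most (9.39 in kidney 5 and 7.84 to 8.53 elsewhere, SD 0.49), and Tlr7 had an SD of 0.148.

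Without kidney 5, which BC023105 separates from the rest, 6.93% of the 13365 genes had an exact permutation p under 0.05 with BC023105, and none an adjusted p under 0.05. With Ifit1 in its place, Parp14 gave r = 0.94 (exact permutation p = 0.00139) and rho = 1 (exact permutation p = 0.00278) over the other 6 kidneys, and r = 0.93 without the 2 farthest. Usp18 gave r = 0.96 (exact permutation p = 0.0181) and rho = 0.83 (exact permutation p = 0.0583), but r = 0.62 without the 2. Parp14 and Usp18 were in the group by r over all 7 kidneys, so these values describe it. With Ifit1 as the leading gene, too, no gene passed after adjustment, and 1095 had an unadjusted p under 0.05.

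In the interferon response list, 14 of 26 ranked members had an SD above 0.5 (0 without kidney 5), and the mean of the 26 was 7.53, 7.50, 7.68, 7.49, 8.83, 7.23 and 7.48 in kidneys 1 to 7. Class I antigen presentation, which interferon also raises, had 0 of 9 members above 0.5, and its mean was 0.42 above average in kidney 5 and 0.36 below average in kidney 6. Tap1, the peptide transporter, had 7.09 in kidney 5 and 6.04 to 6.43 elsewhere. H2-K1, a class I heavy chain, was highest in kidney 1 (10.65), with kidney 5 at 10.52 and kidney 6 lowest at 9.51. The median SD of the 23 genes was 0.63 over the 7 NZB/W kidneys. Over the 4 NZW/BXSB kidneys the median SD of the 23 was 0.12, against 0.0981 for all ranked genes. None of the 23 was among the 100 most variable there. With only 100 of 13366 ranked genes in that list, the absence of these genes says little.

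Promoters were matched for 14 of the 23 genes, and 6 of the 14 held the core of the interferon-stimulated response element, which is GAAA, any 2 bases and GAAA again, on either strand, against 3.54% of the 10481. The 6 were Ifit1, Cxcl10, Irgm1, Igtp, Bst2 and Gbp3. The windows of 100 bases below come from chr19:34640744-34640843 (plus strand, Ifit1), chr11:58199456-58199555 (plus strand, Igtp), chr3:142559944-142560043 (plus strand, Gbp3) and chr5:92349040-92349139 (minus strand, Cxcl10) of GRCm38.p6, with matches in capitals. In Gbp3 the matches overlap, and in Ifit1 and Gbp3 they read as the reverse complement.
Ifit1: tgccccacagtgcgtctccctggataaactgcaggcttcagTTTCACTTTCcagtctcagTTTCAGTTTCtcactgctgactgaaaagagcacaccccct
Igtp: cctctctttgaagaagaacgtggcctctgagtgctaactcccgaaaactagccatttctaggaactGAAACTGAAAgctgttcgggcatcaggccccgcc
Gbp3: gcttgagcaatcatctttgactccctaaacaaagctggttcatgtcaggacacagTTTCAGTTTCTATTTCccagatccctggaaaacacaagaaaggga
Cxcl10: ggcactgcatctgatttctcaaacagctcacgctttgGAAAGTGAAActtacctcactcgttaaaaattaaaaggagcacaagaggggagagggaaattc
Each is a match of letters, and whether a factor binds there was not measured. No promoter matched for the other 3 groups held this core.

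Kidney 5 also had the lowest values of several genes of the distal convoluted and connecting tubule. Calb1, the calcium buffer calbindin, had 12.21, 12.62, 12.29, 12.65, 11.63, 12.47 and 12.37 in kidneys 1 to 7, and Slc8a1, the sodium calcium exchanger, had 7.69 in kidney 5 and 8.19 to 8.85 in the others. Pvalb, parvalbumin of the early distal convoluted tubule, was lowest in kidney 5 (9.95) as well, but kidney 1 was close (10.02), and kidneys 6 and 7 were high at 11.15 and 11.11. The mean of the 8 genes of that list was 0.40 below average in kidney 5 and 0.26 above average in kidney 6. Kidney 5 also had the lowest mean of other lists. Among them were thick ascending limb (0.17 below average), intercalated cells (0.14 below) and oxidative phosphorylation (0.16 below). Kidney 3 had the lowest mean for proximal tubule and principal cells.

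**Figure D4:**
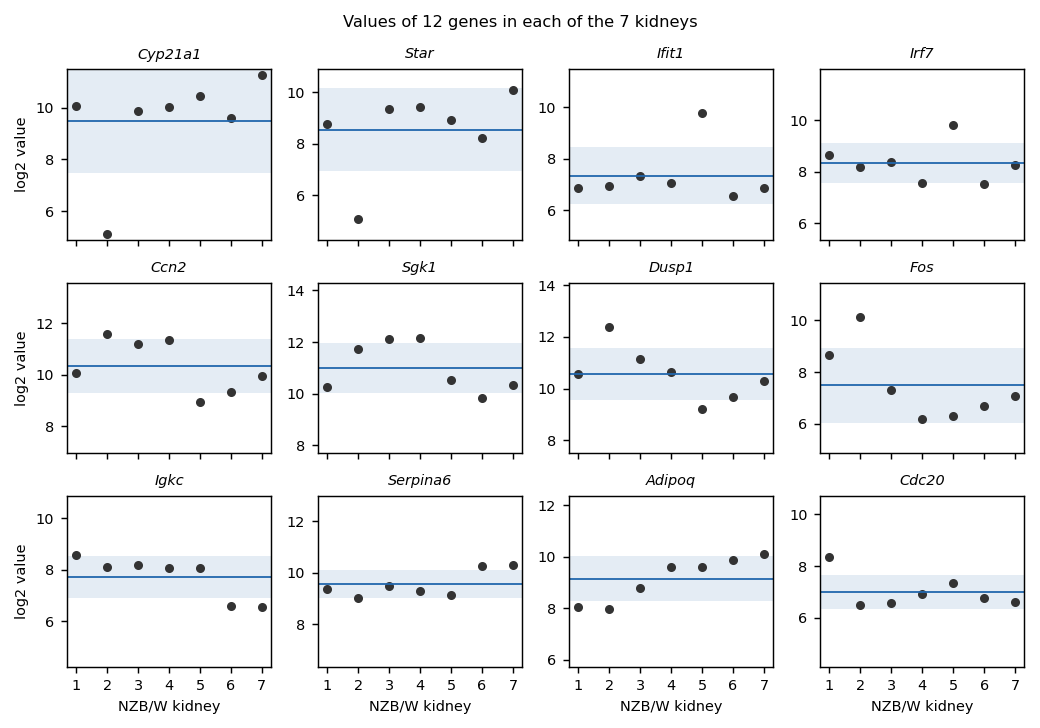
Log2 values of 12 genes in each of the 7 NZB/W kidneys, 1 point per kidney. The line is the mean and the band is the mean ± 1 SD (n = 7), and every panel spans the same number of log2 units. Kidney 2 is lowest for Cyp21a1 and Star and highest for Dusp1 and Fos, kidney 5 is highest for Ifit1 and Irf7, kidneys 6 and 7 are low for Igkc and high for Serpina6, and kidney 1 is highest for Cdc20.

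In the Ccn2 group of 11 genes, kidneys 2, 3 and 4 were above the other 4 for all 10 genes that ran the same way. They were below the other 4 for Ces2b. Genes joined the group by r over the same kidneys, so this shared order follows largely from that choice. Of the 11, 3 (Ddit4, Per1 and Tsc22d3) were in the glucocorticoid and fasting list. Ccn2, connective tissue growth factor, had values of 10.08, 11.59, 11.20, 11.33, 8.94, 9.34 and 9.96, with no kidney far from the others. Per1, a clock gene that glucocorticoids also induce, had 7.87, 8.85, 8.64, 8.65, 7.35, 7.64 and 7.96. Tsc22d3, the glucocorticoid-induced leucine zipper protein, had 8.07, 8.92, 8.97, 8.95, 7.85, 7.73 and 8.08, so kidneys 2, 3 and 4 lay together above the rest. The same 3 kidneys were the highest for Ddit4, an inhibitor of mTORC1 (9.57 to 9.998, against 8.21 to 8.51 in the other 4).

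Other members were Pim3, a survival kinase, Nfkbia, the inhibitor of NF-κB, Adamts1, a matrix protease, Cdh11, a mesenchymal cadherin, Plk3, a stress kinase, and Cyp1b1, a cytochrome P450 of mesenchymal cells. Ces2b, a carboxylesterase, ran the other way, with 8.34, 7.58, 8.09, 7.40, 8.72, 8.95 and 8.77. Correlations with Ccn2 were computed over all 7 kidneys. Per1 gave r = 0.99 (exact permutation p = 0.000595) and rho = 0.96 (exact permutation p = 0.00278), with r = 0.99 after leaving out the 2 kidneys farthest from the median of Ccn2. Pim3 gave r = 0.99 (exact permutation p = 0.000397), rho = 0.96 (exact permutation p = 0.00278) and r = 0.98 without the 2. Ces2b gave r = -0.90 (exact permutation p = 0.00893), rho = -0.86 (exact permutation p = 0.0238) and r = -0.83 without the 2. The members were chosen by r over the same kidneys, so these values describe the group.

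Beyond the 100 most variable genes, Ccn2 had many followers of smaller spread. Marcks, a substrate of protein kinase C, had r = 0.996 (exact permutation p = 0.000198, the smallest that 5040 orders can give), rho = 1 (exact permutation p = 0.000397) and an SD of 0.32. Trp53inp1, a p53 target, also had r = 0.997 and rho = 1, with the same exact permutation p values and an SD of 0.147. Ubtf, a transcription factor of ribosomal RNA genes, had r = -0.99 and rho = -1, with the same exact permutation p values and an SD of 0.139. Marcks, Trp53inp1 and Ubtf were named for the size of their r among all ranked genes, so their p values describe that choice. An exact permutation p under 0.05 was reached by 17% of the 13365 genes with Ccn2, and the smallest adjusted p was 0.40.

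In the Dusp1 group, kidney 2 was highest for all 5 genes, of which 4 were in the immediate early list. Membership was set by r over the same kidneys, so the count of 5 describes that choice. Of the 100 most variable genes, this group included, kidney 2 was highest for 24. Dusp1, the phosphatase that shuts off MAP kinases, had values of 10.56, 12.38, 11.16, 10.66, 9.22, 9.69 and 10.28. Jun, a subunit of the AP-1 transcription factor, had 8.74, 9.98, 8.87, 8.61, 7.98, 7.89 and 8.21, and Cebpd, a transcription factor of the acute phase, had 8.82, 9.85, 8.82, 8.57, 7.46, 7.84 and 8.23. Gadd45g and Ier3, stress response genes, were 10.85 and 10.49 in kidney 2, against 8.44 to 10.07 and 8.71 to 9.97 elsewhere. Kidney 5 or kidney 6 was lowest for each of the 5 genes.

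With Dusp1, Cebpd gave r = 0.98 (exact permutation p = 0.000794), rho = 0.89 (exact permutation p = 0.0123) and r = 0.91 without the 2 kidneys farthest from the median of Dusp1. Jun gave r = 0.97 (exact permutation p = 0.000794), rho = 0.93 (exact permutation p = 0.00675) and r = 0.95 without the 2. Dusp6, another MAP kinase phosphatase outside the 100 most variable genes, gave r = 0.97 (exact permutation p = 0.000992), rho = 0.96 (exact permutation p = 0.00278) and r = 0.89. Cebpd and Jun joined the group by r over the same kidneys, and Dusp6 was named for its high r among all ranked genes. These values therefore describe the choice of genes. An exact permutation p under 0.05 was found for 11.2% of the genes with Dusp1. Over the 4 leading genes together, 4829 of 53460 pairs with a ranked gene had an unadjusted exact permutation p under 0.05, none had an adjusted p under 0.05, and the smallest adjusted p was 0.40. By Spearman's rho the counts were 3875 and none, with a smallest adjusted p of 0.53. No exact permutation p can be under 0.000198 with 7 kidneys or under 0.00139 with 6. Passing after adjustment would therefore need many pairs at those values, and the absence of such pairs says little about any single pair.

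The promoter of Dusp1 (chr17:26508566-26508665, minus strand, GRCm38.p6) held the cyclic AMP response element given above for Chgb and Scg2. It was the only match among the 4 promoters of that group and was shown because Dusp1 led it.
Dusp1: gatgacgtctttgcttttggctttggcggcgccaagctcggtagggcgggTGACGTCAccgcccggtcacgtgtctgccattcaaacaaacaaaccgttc
None of the 8 promoters of the Ccn2 group held that element.

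Fos and Egr1, the classic immediate early transcription factors, were more variable than Dusp1 and came before it in the order by SD. Fos had 8.67, 10.15, 7.32, 6.18, 6.30, 6.68 and 7.09, and Egr1 had 9.87, 11.50, 9.93, 8.13, 7.82, 8.29 and 8.48. Kidney 2 was highest for both, as for Dusp1. Kidney 4 was lowest for Fos, and kidney 5 was lowest for Egr1, as for Dusp1. Zfp36, which destabilises cytokine mRNA, was grouped with Fos, with 10.49 in kidney 2 and 8.77 to 9.51 in the others. Egr1 also ran with Dusp1 over the 7 kidneys, just under the grouping threshold (r = 0.898, unadjusted exact permutation p = 0.00556; rho = 0.79, exact permutation p = 0.0480; r = 0.63 without the 2 farthest kidneys). Zfp36 was above that threshold with Dusp1 too, but Fos came first (r = 0.91, unadjusted exact permutation p = 0.00397; rho = 0.89, exact permutation p = 0.0123; r = 0.63 without the 2 farthest kidneys). Ccn1, a relative of Ccn2, was highest in kidney 1 (9.07), with kidney 2 next (8.89) and kidney 5 lowest (6.72). Of 25 ranked genes in the immediate early list, 10 had an SD above 0.5, and the mean of the 25 was 8.13, 8.76, 8.18, 7.86, 7.51, 7.52 and 7.76 in kidneys 1 to 7. All 3 genes of the Fos group were also among the 100 most variable of the 13366 ranked genes in the NZW/BXSB kidneys.

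Kidney 2 had the lowest means of the adrenal cortex and medulla lists and the highest mean of the immediate early list. Its poly-A spike mean (7.85) was also the highest of the 7. The poly-A spike mean correlated with Dusp1 at r = 0.58 (exact permutation p = 0.173) and rho = 0.75 (exact permutation p = 0.0663) and with Ccn2 at r = 0.65 (exact permutation p = 0.115) and rho = 0.71 (exact permutation p = 0.0881) over the 7 kidneys. Without the 2 kidneys farthest on the spike mean these were r = 0.87 and r = 0.85. Over the 6 kidneys other than kidney 2, the difference between the 3′ and 5′ probe sets of Actb correlated with Cyp21a1 at r = 0.81 (exact permutation p = 0.0458) and rho = 0.94 (exact permutation p = 0.0167), with r = 0.84 without the 2 farthest kidneys. Over the 6 kidneys other than kidney 5, the spike mean correlated with BC023105 at r = 0.67 (exact permutation p = 0.146) and rho = 0.83 (exact permutation p = 0.0583), with r = 0.90 without the 2 farthest. The 18S rRNA mean correlated with Ccn2 over the 7 kidneys at r = 0.74 (exact permutation p = 0.0508) and rho = 0.75 (exact permutation p = 0.0663), with r = 0.54 without the 2 farthest. Of 16 correlations between 4 array measures and the 4 leading genes, none had an adjusted p under 0.05, with a smallest of 0.406 for r and 0.265 for rho. The part of labelling and RNA quality in the groups was not tested otherwise.

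Sgk1, the kinase by which aldosterone and glucocorticoid raise sodium transport, led a group of 4. Its values were 10.28, 11.72, 12.12, 12.17, 10.54, 9.82 and 10.35, so kidneys 2, 3 and 4 were again above the other 4. Noct, a clock-controlled regulator of metabolism, had 7.50 to 7.82 in those 3 kidneys and 6.32 to 6.58 in the rest. Anpep, a peptidase of the brush border, ran the other way with 8.59 to 8.73 in the 3 and 9.30 to 9.90 in the rest, as did Map3k7cl. Of the 20 ranked genes in the glucocorticoid and fasting list, 6 had an SD above 0.5, and Igfbp1, a binding protein of insulin-like growth factor, was among them with 11.37 in kidney 2 and 9.32 to 10.55 in the others. The glucocorticoid receptor Nr3c1, added after values were seen, varied little (SD 0.147).

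Fat genes also differed between kidneys. Adipoq, the adipocyte hormone adiponectin, had 8.06, 7.98, 8.79, 9.61, 9.59, 9.87 and 10.10, Cfd, the adipocyte protease adipsin, had 10.03, 9.10, 10.44, 10.9999, 10.71, 11.05 and 11.55, and Car3, a carbonic anhydrase abundant in fat, had 8.89, 8.995, 9.43, 10.60, 10.08, 10.68 and 10.93. Kidneys 1 and 2 were low for all 3 genes, and kidney 7 was highest. Ucp1, the uncoupling protein of brown fat, was highest in kidney 4 (8.68, against 7.51 to 8.00 in the other 6). The fat list had 3 of 15 members above an SD of 0.5, and its mean lay between 8.33 in kidney 2 and 9.11 in kidney 7. The adrenal cortex list had its lowest and highest means in the same kidneys. Kidney 2 was lowest for 7 of the 15 fat genes and for 11 of the 12 adrenal cortex genes, and kidney 7 was highest for 6 and 10 of them. The same shares over all ranked genes were not computed, so these counts cannot be read as particular to the lists. Of the 100 most variable genes, members of these lists included, kidney 2 was lowest for 29 and kidney 7 highest for 24. Being the farthest from the median at either end is another measure, which does not serve as a base for the counts. It held for kidney 2 in 20.2% of all ranked genes and for kidney 7 in 6.54%. The median r between a fat gene and an adrenal gene was 0.47 over 180 pairs with the cortex list and 0.45 over 135 pairs with the medulla list, a description over the same 7 arrays. The part of adhering tissue in the adrenal or fat values was not tested.

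Igkc, Jchain and Igha, which were grouped by r over the same kidneys, separated kidneys 6 and 7 from the other 5. Igkc, the constant region of the kappa light chain, had 8.55, 8.12, 8.17, 8.06, 8.08, 6.59 and 6.54, Jchain, which links IgA and IgM, had 7.80, 7.82, 7.89, 7.65, 7.65, 6.35 and 6.10, and Igha, the IgA heavy chain, had 9.07, 8.39, 8.75, 8.54, 8.63, 7.72 and 7.38. Kidneys 6 and 7 were the lowest for all 3 genes. Serpina6, the corticosteroid-binding globulin, ran the other way with 10.28 and 10.32 in kidneys 6 and 7 and 9.01 to 9.50 in the rest. Because Igkc splits the kidneys 5 to 2, no correlation with it was tested, and r over the 7 kidneys served only to form the group. The B and plasma cell list as a whole did not move together. Of its 12 ranked members, 2 had an SD above 0.5, and the median pairwise r was -0.087. Its mean was 6.11 and 6.04 in kidneys 6 and 7, against 6.27 to 6.46 in the others.

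The same pair of kidneys had the lowest Lcn2, an injury marker of tubules and a neutrophil granule protein (6.01 and 5.81 in kidneys 6 and 7, against 6.66 to 6.99 in the rest), and the lowest Spp1, given above. The macrophage list was lowest in kidney 6, where its mean was 0.38 below average, and highest in kidney 1, where it was 0.19 above. Ctss, a lysosomal protease of macrophages, had 9.22 and 9.56 in kidneys 6 and 7 and 9.90 to 10.30 in the others. The mean of the 15 proximal tubule genes was 0.18 above average in kidneys 6 and 7, which were the 2 highest kidneys for 12 of the 15. The share of all ranked genes with these 2 kidneys highest was not computed, so the 12 of 15 cannot be read as particular to these genes. Slc22a8, an organic anion transporter, had 10.33 and 10.47 there and 9.45 to 9.97 in the others, whereas Slc17a1, a phosphate transporter, had 12.04 and 12.01 there and 11.79 to 12.28 in the others.

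Kidney 1, at the end of the range on the control measures given above, was the highest for Cdc20, an activator of the anaphase promoting complex (8.34, against 6.47 to 7.34), and for Cdk1, the mitotic kinase (7.94, against 6.85 to 7.48). It was the lowest for Sppl2a, an intramembrane protease (7.12, against 8.32 to 9.06), for Hpd, an enzyme of tyrosine breakdown (9.53, against 10.61 to 11.64), for Fam81a (7.94, against 8.67 to 9.76) and for Xist, the RNA of the inactive X chromosome (9.36, against 10.15 to 10.82). Havcr1, the injury marker Kim-1, was high in kidneys 1 and 5 (9.64 and 9.65, against 8.14 to 8.98 in the rest). Hdc, the enzyme that makes histamine, was high in the same pair (8.32 and 8.16, against 6.05 to 7.44).

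Cyp24a1 and Myl2 were highest in kidney 4. Cyp24a1, which breaks down active vitamin D, had 9.37 in kidney 4 and 7.07 to 8.26 in the other 6. Myl2, a myosin light chain of heart and slow muscle, had 6.13 in kidney 4 and 4.18 to 4.65, below the background level, elsewhere. Skeletal muscle markers did not follow it: Ckm, muscle creatine kinase, lay between 6.32 and 6.67, and the mean of the 5 ranked members of that list lay between 5.37 and 5.56. C3, the central complement protein, had 10.66, 8.54, 10.07, 10.46, 10.98, 9.09 and 9.94, with kidneys 2 and 6 low. Bhmt, betaine-homocysteine methyltransferase, had 7.90, 9.79, 8.67, 8.75, 7.33, 9.13 and 8.95, with kidneys 1 and 5 low and kidney 2 high. Bhmt and Igfbp1 formed a group of 3 with C3, and both ran opposite to it. The clock genes Dbp and Nr1d1 had SDs of 0.60 and 0.58, and their lowest values were in kidney 1 for Dbp (7.84) and in kidneys 3 and 4 for Nr1d1 (7.64 and 7.65).

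**Figure D5:**
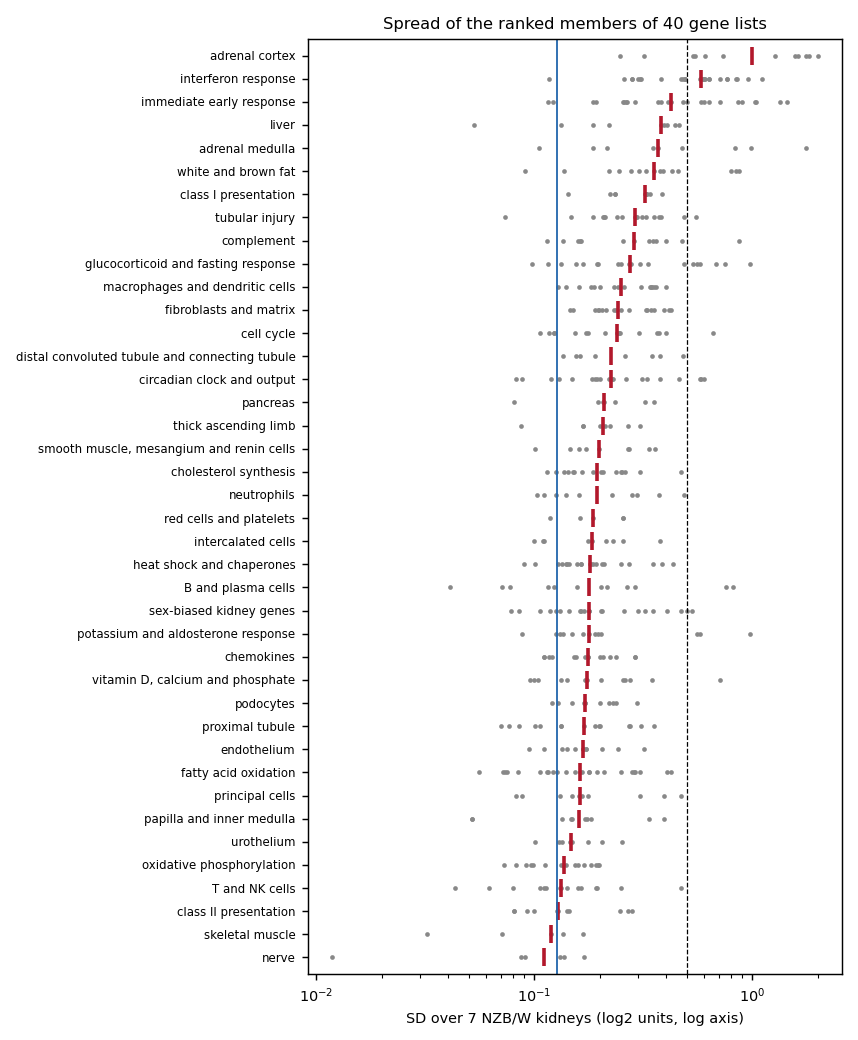
SD over the 7 NZB/W kidneys of each ranked member (grey points) of 40 gene lists, on a log axis, with the median of each list as a red bar. The blue line is the median of all ranked genes (0.126) and the dashed line is at 0.5. Adrenal cortex, interferon response and immediate early genes have the 3 highest medians, and nephron segment lists have no member above 0.5.

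Across 40 gene lists, 5 had at least 25% of their ranked members above an SD of 0.5, and these were adrenal cortex, interferon response, immediate early response, adrenal medulla, and glucocorticoid and fasting response. No member was above 0.5 in 26 lists. Among these were proximal tubule, with a median SD of 0.17 over 15 genes, thick ascending limb (0.21 over 8), principal cells (0.16 over 10), intercalated cells (0.18 over 9), podocytes (0.17 over 11) and endothelium (0.17 over 12). Oxidative phosphorylation genes had a median of 0.14 and went together to a degree, with a median pairwise r of 0.65 over 16 genes against 0.0035 over all ranked genes. Nearly all lists were above the median of all genes, since 38 of 40 had a median SD over 0.126.

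Spread was in part shared with the other strain. Of the 100 most variable genes in the NZB/W kidneys, 27 were among the 100 most variable in the NZW/BXSB kidneys, which is 27% of each list, and 5 of the 20 most variable were shared. Without NZW/BXSB kidney 2, 15 of the 100 were shared. Each list of 100 was drawn from 13366 ranked genes. The 27 include 10 genes of the Cyp21a1 group and none of the BC023105 or Ccn2 groups. Few or no genes of groups of 23 and 11 would be in such a list by share alone, so their absence says little. An SD above 0.5 was found for 106 genes within the 7 NZB/W kidneys, against 42 genes (0.314%) within the 4 NZW/BXSB kidneys. Sex, age and the number of kidneys differ between the strains, so these counts cannot be set against each other as strain effects.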

How the data were processed

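The authors normalised and batch-corrected the arrays of the study's strains together, arrays not analysed here included, and deposited RMA log2 values, 1 per Entrez gene, with probes regrouped by a Brain Array annotation. The genome build behind it is not given in the sources used here, and no scanner files were used. Batch correction before deposit may have removed spread that cannot be recovered. The authors also deposited a yes or no call for each gene above baseline in NZB/W, which set the genes that were ranked. Names were taken from RefSeq (GRCm38.p6) for 13213 of the 13366 genes and from the deposited symbols for the rest.

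Means, SDs and correlations were computed with Python 3.11.15, numpy 2.4.6, pandas 2.3.3 and scipy 1.17.1, and the exact two-sided permutation p counts all orders of the kidneys with an r at least as large in size. The code was tested on simulated data. A leading gene separated kidneys where its largest gap was over 0.5 of its range, and r was then given within a part of at least 6 kidneys. Genes were named by rule: the 20 highest means, the 40 highest SDs, members of the 4 groups, up to 8 highest and 4 lowest correlations with each leading gene, up to 4 most variable members of each list, the 5 steadiest with a mean above 10, and a fixed set. Other genes named were chosen after their values were seen. The members and lists were chosen with earlier results of these data known. Alternatives tried were array centring, quantile normalisation, no filter on dim genes, other measures of spread and correlation, and leaving out kidneys. Ren1, Hba-a1, Isg15, Prss1 and Plin1 were not analysed here, and some genes that the rule names are not reported here.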

Additional observations from a re-analysis of the deposited data

Results flagged for a closer look

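For each of 136 ranked genes named in the text, the gap of the highest or the lowest kidney to its neighbour was divided by the range over the 7 kidneys. A ratio above Dixon's critical value for 7 samples, which chance gives in about 1 of 20 groups, was found for 35 of the 136 genes, against 5.21% of all 13366 ranked genes. Many of the 136 were named because they varied, so the counts cannot be read against each other.

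Kidney 2 was set apart at the low end for 11 genes, with ratios in brackets: Akr1cl (0.665), Akr1d1 (0.677), Apoc1 (0.618), Chga (0.577), Cyp11a1 (0.668), Cyp11b1 (0.62), Cyp21a1 (0.729), Hsd3b1 (0.685), Nr5a1 (0.715), Pnmt (0.584) and Star (0.632). Of these, Nr5a1 is the transcription factor of steroid-producing cells. At the high end it was set apart for Zfp36 (0.571). Kidney 5 was set apart at the high end for 20 genes, which were BC023105 (0.632), Cxcl10 (0.695), Gbp3 (0.621), Ifi202b (0.591), Ifi204 (0.625), Ifi44 (0.775), Ifit1 (0.752), Igtp (0.695), Irf9 (0.748), Irgm1 (0.667), Ly6e (0.575), Oasl1 (0.764), Oasl2 (0.732), Parp12 (0.613), Parp14 (0.711), Parp9 (0.794), Rtp4 (0.749), Tap1 (0.629), Usp18 (0.744) and Xaf1 (0.818). Kidney 4 was set apart at the high end for Myl2 (0.756) and Ucp1 (0.581), and kidney 1 at the low end for Sppl2a (0.619). None of 6 array measures over control probe sets passed the same threshold.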

How the results depend on the processing

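The ranking by level was the most stable, with 19 to 20 of the 20 highest genes kept when any 1 NZB/W kidney was left out. The count of genes with an SD above 0.5 was 106, and it was 81 to 129 without 1 NZB/W kidney (81 without kidney 5) and 64 without kidneys 2 and 5, an alternative chosen after seeing the data. Of the 100 most variable genes, 73 to 94 were kept without 1 kidney, 64 without kidneys 2 and 5, and 45 when the scaled median absolute deviation replaced the SD, a measure that a single far kidney hardly moves. The lists with at least 25% of members above 0.5 numbered 4 to 5 without 1 kidney and 2 without kidneys 2 and 5. The groups of at least 5 genes took in 55 to 76 genes without 1 kidney, and none of these groups was led by an interferon-induced gene without kidney 5. Of 12 alternatives, Cyp21a1 still led a group under 10, BC023105 under 9, Ccn2 under 9 and Dusp1 under 5. Ccn2 led none without kidney 4 or without kidney 5, and Dusp1 led none without kidney 1, 2, 6 or 7, with Spearman's rho or with an r of at least 0.8. The overlap with the NZW/BXSB ranking was 15 to 30 genes without 1 kidney of either strain, with 15 without NZW/BXSB kidney 2.

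Under every alternative run, 0 pairs passed an adjusted p of 0.05, and the smallest adjusted exact permutation p ranged from 0.151 to 0.692. Leaving out a kidney leaves 6, where no exact permutation p can be under 0.00139. Passing would then need many pairs at that value, so the count of 0 could hardly change and says little about single pairs. Values of 25 SDs and 9 list counts for named items moved by more than 1 SD or 1.5 times, all of them without kidney 2, kidney 5 or both or with the median absolute deviation. In the Cyp21a1 group, r over 6 kidneys changed sign for 4 of 16 genes without the 2 farthest kidneys, for Star (0.78, then -0.53), Hsd3b1 (0.82, then -0.43), Chgb (0.77, then -0.39) and Mgst2 (0.87, then -0.06). Only 7 arrays limit the precision, and batch correction was done before deposit. No paired analysis was possible because no result compares groups of kidneys.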
